A study of Mus musculus with 6 samples.

Results

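The genes for the proteins of the cytosolic ribosome were described in mouse dorsal root ganglia after kidney ischemia-reperfusion. Members were chosen by gene symbol, taking every row of the table named as a ribosomal protein of the large (Rpl, Rplp) or small (Rps, Rpsa) subunit and leaving out symbols with -ps and the Rps6k kinases. The rule took 89 of 57180 genes, 53 of the large and 36 of the small subunit. They comprise 77 canonical genes, 7 paralogs and 5 further copies. Of the 89 members, 82 passed the filter on low counts and were tested, among them all 77 canonical genes, so the symbols pick out genes that these ganglia expressed.

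The ganglia are clusters of sensory neurons with their satellite glia and Schwann cells, taken from thoracic level 8 to lumbar level 2. Each group held 3 wild-type (WT) mice, 1 library per mouse, and tissue was taken 24 h after surgery under Zoletil. In the I/R group the left renal pedicle was clamped for 28 min and released and the right kidney was removed. The sham group had the same procedures without the clamp, and removal of the right kidney was not stated for it separately. RNA was read with a stranded mRNA kit, and levels are CPM, the counts scaled to library size with TMM factors. Values of a group are given in the order of its mice, 1 to 3.

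Ribosomal proteins assemble on ribosomal RNA in the nucleolus, and most are needed in equal number in each ribosome. Their messenger RNAs are short and abundant, and many begin with a C followed by a run of pyrimidines, the terminal oligopyrimidine (TOP) motif. Through this motif the kinase mTOR sets how strongly they are translated, a control that acts on translation more than on RNA level. In sensory neurons, ribosomal protein messenger RNAs are also carried into axons.

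Ribosomal protein transcripts did not separate I/R from sham ganglia. They varied together from mouse to mouse within both groups. Summed over the 89 members, the level was 8875, 8439 and 11834 CPM in sham mice and 11683, 8529 and 7046 CPM in I/R mice. The highest sham and the highest I/R library were thus nearly equal, and the groups overlapped. The group values were 9716 ± 1847 CPM in sham mice and 9086 ± 2368 CPM in I/R mice (SD, n = 3 mice each), a log2 difference of -0.11. By an exact permutation test, two-sided, p was 0.6, where 0.1 is the smallest p that 3 against 3 can give. The highest library stood 1.68 times above the lowest. As a share of all counts, the members took 0.702% in I/R 3 and 1.21% in sham 3, with the other 4 libraries between 0.838% and 1.17%.

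The subunits moved alike. Large subunit genes summed to 5550, 5300 and 7304 CPM in sham mice and to 7187, 5365 and 4470 CPM in I/R mice (exact permutation p = 0.6). Small subunit genes summed to 3326, 3139 and 4529 CPM in sham mice and to 4496, 3164 and 2576 CPM in I/R mice (exact permutation p = 0.7). In both sums sham 3 was highest, I/R 1 next and I/R 3 lowest. In whole ganglia, fewer cells of a type and less RNA per cell cannot be told apart.

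**Figure D1:**
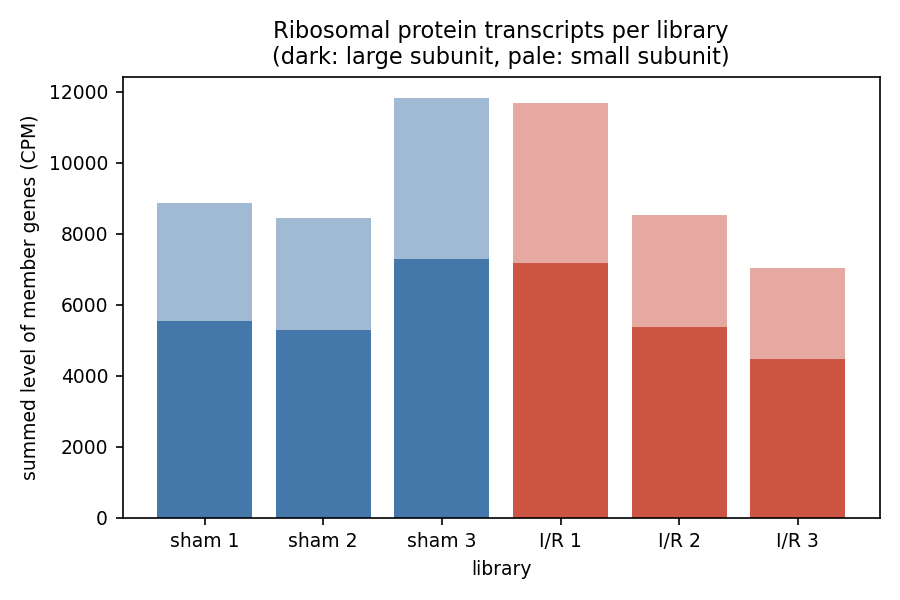
Summed level of the 89 ribosomal protein genes in each library, in CPM, with large subunit genes in the dark part of each bar and small subunit genes in the pale part (blue: sham, red: I/R, 1 mouse per bar). Sham 3 (11834 CPM) and I/R 1 (11683 CPM) stand above the other 4 libraries, and I/R 3 (7046 CPM) is lowest.

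Member transcripts were compared at their starts, where the TOP motif lies. RefSeq starts (assembly GRCm38.p6) were matched by symbol for 64 members, at 76 starts. A C at the start followed by 4 bases that are each C or T, read on the transcribed strand, stood at 14 of the 76 member starts (18.4%) and at 823 of all 32851 starts (2.51%). In a window of 15 bases around the start, from 5 bases before it, the same pattern was found at 42.1% of member starts and 18.3% of all starts. A match is a description of the letters and not a measured site. The starts are those annotated in RefSeq and were not measured in these ganglia. A start without a match is therefore not shown to lack the motif. Each window below covers 20 bases before the start and 20 from it, 5′ to 3′. Capitals mark the pyrimidine run that opens the annotated transcript, and in the last line, where no such run is present, its first base.
Rps6, chr4:86857348-86857387, minus strand: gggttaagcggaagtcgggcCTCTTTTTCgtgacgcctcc
Rps27, chr3:90213629-90213668, minus strand: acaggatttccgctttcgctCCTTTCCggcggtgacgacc
Rplp2, chr7:141447631-141447670, plus strand: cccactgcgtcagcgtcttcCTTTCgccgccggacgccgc
Rpl28, chr7:4792945-4792984, plus strand: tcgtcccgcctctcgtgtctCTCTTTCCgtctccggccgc
Rpl38, chr11:114668560-114668599, plus strand: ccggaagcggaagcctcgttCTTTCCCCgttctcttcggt
Rpl3l, chr17:24727806-24727845, plus strand: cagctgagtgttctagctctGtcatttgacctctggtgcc
The 5 genes with a run are ubiquitous, and Rpl3l, the paralog of Rpl3 made in skeletal and heart muscle, is shown against them because its counts followed other libraries, as given below. Rpl3l has a further RefSeq start, also without the motif. Lack of the motif at the annotated start is not particular to Rpl3l. Rpl41 and Rpl39, both high in sham 3 and I/R 1, lacked it too, while Rpl32l, with 0 counts, had it. Whether the motif goes with the library pattern was not tested.

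No member was called between the groups. With edgeR's quasi-likelihood test and Benjamini-Hochberg adjustment over all genes, 0 of 82 tested members had an adjusted p under 0.05, against 188 of 16346 genes in all (1.15%). DESeq2 and limma-voom also called 0. Unadjusted p lay under 0.05 for 0 of the 82 in edgeR's test, with 0.0867, for Rpl10, as the smallest. For 0 of 82 members did the 3 I/R values lie wholly above or below the 3 sham values, against 17.1% of all tested genes.

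The fitted differences were small and mostly on the lower side. The log2 fold change, I/R over sham, lay below 0 for 72 tested members and above 0 for 10. Its median was -0.12, beside 0.00013 over all 16346 tested genes, of which 50% lay below 0. The large subunit (42 of 48 below 0) had a median of -0.12, and so had the small subunit (30 of 34). The median standard error of a member was 0.22, larger than the median difference. Because the members vary together, 72 values on one side are not 72 separate results. The median was -0.41 without I/R 1 and turned to 0.077 without sham 3 and to 0.048 without I/R 3, so its sign depended on single libraries.

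**Figure D2:**
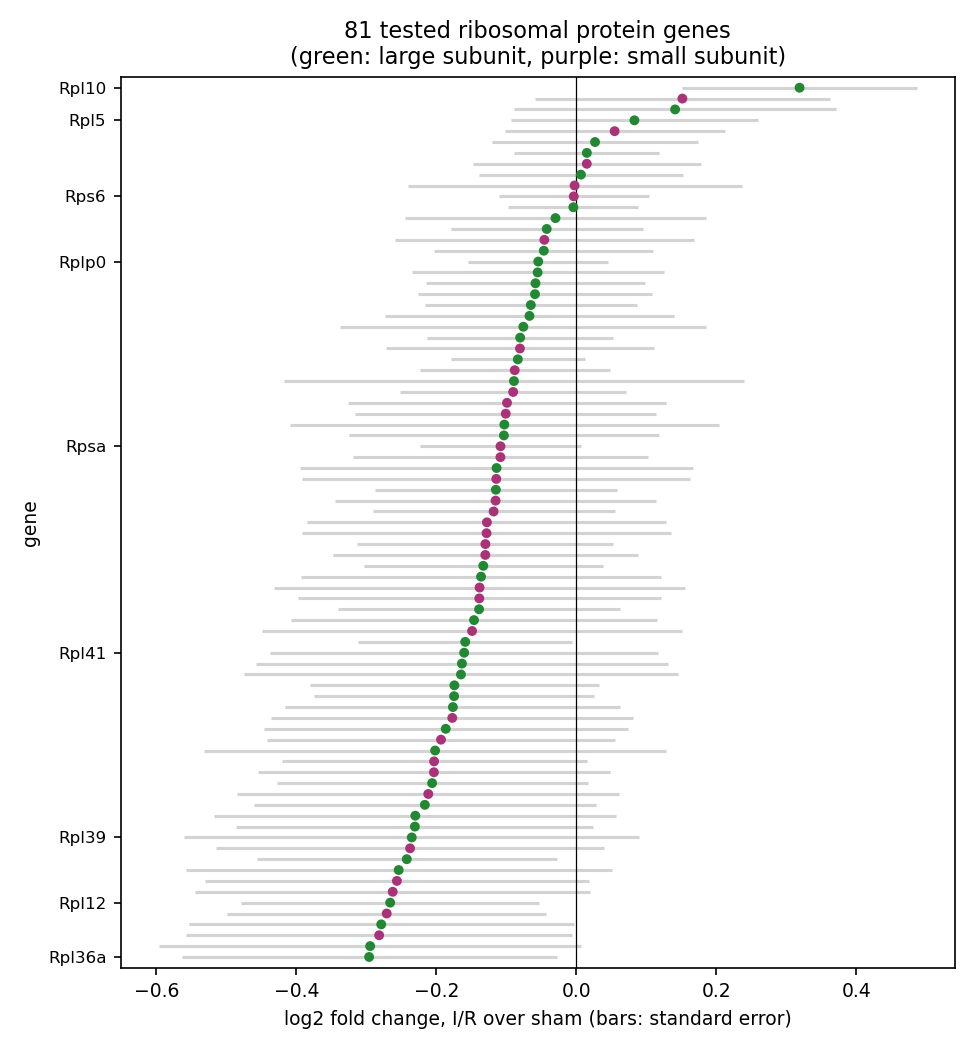
Log2 fold change, I/R over sham, with its standard error, for 81 of the 82 tested ribosomal protein genes ordered by value, 9 of them labelled (green: large subunit, purple: small subunit). Rps12l1, at 0.059 with a standard error of 0.97, is left out for scale. Most points lie a little below 0 with bars that mostly reach across it, and Rpl10 stands alone at the upper end at 0.32.

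The same libraries stood at the top and the bottom in most of the genes. Of 82 members, 58 were highest in sham 3 and 23 in I/R 1, and 77 were lowest in I/R 3. Sham 3 and I/R 1 were the top pair for 75. The ratio of the highest to the lowest library ran from 1.19 to 2.85, with a median of 1.90, over the 81 members other than Rps12l1. Relative to each gene's own mean over the libraries, the median deviation (log2) was -0.062, -0.14 and 0.46 in sham mice and 0.41, -0.15 and -0.45 in I/R mice. Of these 81 members, 79 lay above their mean in sham 3 and 80 in I/R 1, while 2 did so in I/R 3.

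**Figure D3:**
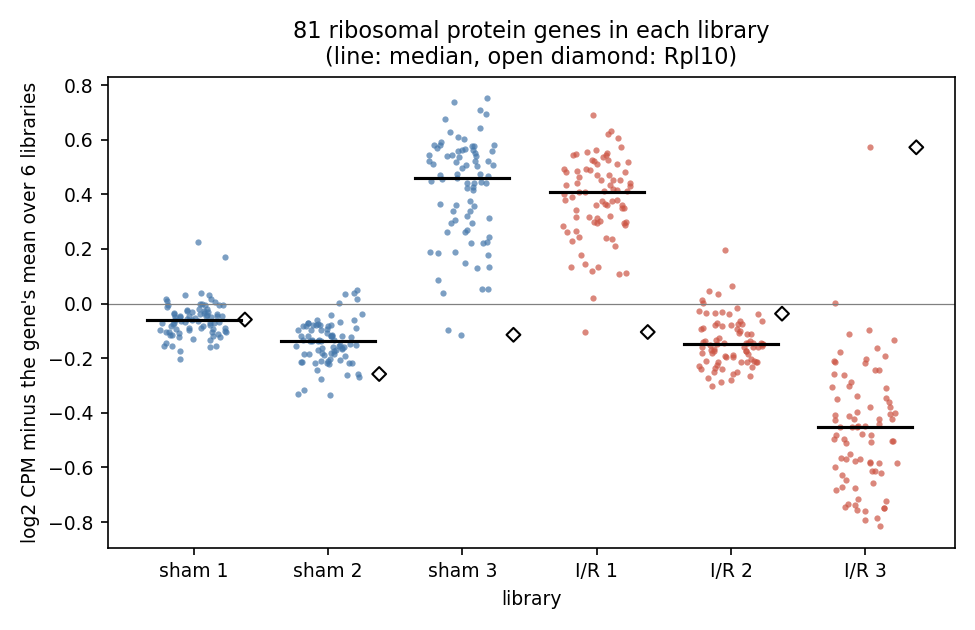
Level of 81 ribosomal protein genes in each library as log2 CPM minus the gene's own mean over the 6 libraries (blue: sham, red: I/R, line: median, open diamond: Rpl10, also among the points). The points shift as a body, up in sham 3 (median 0.46) and I/R 1 (0.41) and down in I/R 3 (-0.45), with Rpl10 far above the others in I/R 3.

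The acidic stalk proteins recruit the translation factors that hydrolyse GTP. Rplp1 stood at 180, 173 and 269.8 CPM in sham mice and at 251, 156 and 107 CPM in I/R mice. Its partner Rplp2 stood at 66.5, 60.4 and 102 CPM in sham mice and at 101, 62.6 and 41.0 CPM in I/R mice. Both were high in sham 3 and I/R 1 and low in I/R 3, so the groups overlapped. Their log2 fold changes were -0.28 ± 0.28 and -0.16 ± 0.29 (SE), with adjusted p of 0.78 and 0.89 in edgeR's test. For Rplp1 the value ran from -0.66 without I/R 1 to -0.030 without I/R 3. Rplp0, which anchors the stalk, was flatter, at 366, 361 and 366 CPM in sham mice and 385, 359.6 and 307 CPM in I/R mice. Its difference was -0.054 ± 0.10 (edgeR adjusted p = 0.89). Rpl12, at the base of the stalk, was at 9.28, 8.20 and 9.05 CPM in sham mice and 10.1, 6.59 and 5.38 CPM in I/R mice, with overlap.

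Other large subunit genes differed in how far they followed the libraries. Rpl3, which lies near the peptidyl transferase centre, was among the steadiest. It stood at 422, 410.0 and 438 CPM in sham mice and 458, 423 and 385 CPM in I/R mice, a difference of -0.0043 ± 0.093 (edgeR adjusted p = 0.99). Rpl5, which carries the 5S ribosomal RNA and binds Mdm2 when ribosome assembly fails, was at 17.2, 13.7 and 19.4 CPM in sham mice and 22.1, 16.1 and 15.1 CPM in I/R mice. Rpl41, which encodes a very short basic peptide, was at 146, 134 and 221 CPM in sham mice and 219, 135 and 95 CPM in I/R mice. The values of Rpl41 ranged more widely than those of Rpl3, and I/R 3 was lowest in both. Rpl37a, Rpl36a and Rpl39 are short components of the large subunit. Rpl37a stood at 57.1, 56.5 and 100 CPM in sham mice and 86.1, 51.4 and 36.8 CPM in I/R mice, and Rpl39 at 43.3, 38.8 and 78.4 CPM in sham mice and 67.4, 41.3 and 27.7 CPM in I/R mice. Rpl36a, at 35.6, 33.6 and 61.0 CPM in sham mice and 49.0, 31.7 and 25.4 CPM in I/R mice, had the lowest log2 fold change of all tested members, -0.30 ± 0.27 (edgeR adjusted p = 0.76). Rpl13 stood at 140, 120 and 143 CPM in sham mice and 198, 158 and 89.7 CPM in I/R mice, with I/R holding both the highest and the lowest value. Rpl22 was at 93.1, 86.6 and 114 CPM in sham mice and 119, 95.8 and 84.4 CPM in I/R mice, and Rpl7 had a difference of -0.080 ± 0.13.

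Small subunit genes gave the same picture. Rps6, the subunit protein phosphorylated by S6 kinases downstream of mTOR, was at 207, 187 and 225 CPM in sham mice and 221, 212 and 183 CPM in I/R mice. The groups overlapped almost wholly, with a log2 fold change of -0.0037 ± 0.11 (edgeR adjusted p = 0.99). Rpsa, first known as a laminin receptor, was at 281, 268 and 311 CPM in sham mice and 304, 262 and 232 CPM in I/R mice. Its difference was -0.11 ± 0.11. Rps2 stood at 238, 208 and 256 CPM in sham mice and 356, 247 and 176 CPM in I/R mice. Rps27 stood at 38.3, 38.6 and 63.9 CPM in sham mice and 56.0, 33.9 and 26.1 CPM in I/R mice. In Rps2 the top library was I/R 1, in Rps27 it was sham 3, and I/R 3 was lowest in both.

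The 4 tested paralogs stood below their parents in level per length. Levels between genes were compared per kilobase of listed gene length, as a multiple of the median canonical gene in the same library, averaged over the 6 libraries. Rpl22l1, the paralog of Rpl22, stood at 0.282 ± 0.040 times that median (SD over the 6 libraries) and Rpl22 itself at 0.372 ± 0.049. Rps4l stood at 0.165 ± 0.033 and its parent Rps4x at 1.501 ± 0.18. Rps27l stood at 0.155 ± 0.012 and Rps27 at 0.917 ± 0.073, and Rpl7l1 at 0.126 ± 0.025 and Rpl7 at 1.78 ± 0.24. All 4 gaps to the parent are larger than the SD of either gene. Their size depends on the listed lengths. Rpl7l1 is listed at 2606 nt with a longest coding sequence of 741 nt, and Rpl7 at 838 nt with 813 nt. Rpl22 is listed at 2051 nt with 387 nt, and Rpl22l1 at 552 nt with 369 nt. Rps27l is a known target of p53. It was at 11.2, 10.5 and 17.5 CPM in sham mice and 15.3, 10.4 and 7.12 CPM in I/R mice, with the same libraries at the top and the bottom as its parent. Its log2 fold change was -0.26 ± 0.27 (edgeR adjusted p = 0.80). Rpl22l1 stood at 18.95, 15.9 and 33.5 CPM in sham mice and 29.2, 18.1 and 12.1 CPM in I/R mice, also high in sham 3 and I/R 1. Rps4l and Rpl7l1 had log2 fold changes of 0.055 ± 0.16 and -0.084 ± 0.096.

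The 7 members that did not pass the filter were Rpl3l, Rpl39l, Rpl10l, Rpl6l, Rpl32l, Rps3a2 and Rps3a3. Rpl10l, Rpl6l, Rpl32l and Rps3a3 had 0 counts in every library, where a count of 0 allows up to 3 counts, or 0.137 to 0.154 CPM. Rpl10l and Rpl39l are known from the testis. Rpl39l had 1 count, in I/R 1, and Rps3a2 had 6.4 expected counts, also in I/R 1.

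Rpl3l had 46, 3 and 18 counts in sham mice and 5, 2 and 5 counts in I/R mice. The values of sham 1 and sham 3 lay above all others, while sham 2 lay within the I/R range. The sum of 12 skeletal muscle markers was 599, 15.3 and 306 CPM in sham mice and 5.24, 13.2 and 8.62 CPM in I/R mice, high in the same pair of sham libraries. Of the 12, 10 were tested, and all 10 lay below 0, with 1 called by edgeR, 10 by DESeq2 and 0 by limma-voom. Myl1 was at 0 in I/R 1. The part of muscle RNA in the Rpl3l result was not tested. Without the filter on low counts, Rpl3l was called lower in I/R in edgeR's test (log2 fold change -2.51, adjusted p = 0.00857), and it was the 1 member called in any of the 20 fits run. Without the filter, 1 of 85 members and 494 of 29449 genes in all were called. Rpl3l also passed the filter and was called when sham 2 was left out (adjusted p = 0.0333 in edgeR's test). In the fit without sham 2, 1 of 83 members and 181 of 16668 genes in all were called. That fit drops the sham library that lay within the I/R range, and the gene passed through the libraries where it is high, so this adds no support.

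Levels per length spanned a wide range among the canonical genes. Rplp1 stood highest, at 2.81 ± 0.27 times the median canonical gene (SD over the 6 libraries), followed by Rpl3 at 2.45 ± 0.48 and Rpl41 at 2.31 ± 0.19. Neighbours in this order lay within that spread of each other. Of 77 canonical genes, 60 lay within 2-fold of the median. The lowest canonical genes were Rpl12 at 0.0498 and Rpl5 at 0.065, and Rps12l1, a copy of Rps12, stood at 0.0128, with 0.982, 0.950 and 0 CPM in sham mice and 1.19, 0.872 and 0 CPM in I/R mice. Listed lengths can exceed the transcript in use. Rps15a is listed at 5130 nt and Rps20 at 3706 nt, while their longest coding sequences are 393 and 360 nt, so their per-length levels are understated if short transcripts prevail. The same limit applies to Rpl12, listed at 1242 nt, and Rpl5, listed at 2045 nt, with longest coding sequences of 498 and 894 nt. Why Rpl12 and Rpl5 stood lowest was not tested.

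Rpl10, which joins the large subunit late in its assembly, was the member that went against the rest. It stood at 83.9, 73.0 and 80.7 CPM in sham mice and at 81.2, 85.1 and 130 CPM in I/R mice. I/R 3, the lowest library for most members, was its highest. Its log2 fold change, 0.32 ± 0.17, was the largest of all tested members, with an adjusted p of 0.56 in edgeR's test. It was 0.072 without I/R 3, and 0.51 with the length trend described below as an offset. The copy Rpl10-ps3, whose sequence matches the Rpl10 coding sequence at 100% identity over its full length, stood at 151, 146 and 202 CPM in sham mice and at 196, 126 and 59.4 CPM in I/R mice. Added together, they stood at 234, 219 and 282 CPM in sham mice and 278, 211 and 189 CPM in I/R mice. The sum was highest in sham 3 and lowest in I/R 3, as in most members. With all copies found by sequence added, the log2 fold change of Rpl10 was -0.13, the opposite sign. Reads from identical stretches cannot be told apart by sequence, so the split between gene and copy is uncertain.

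**Figure D4:**
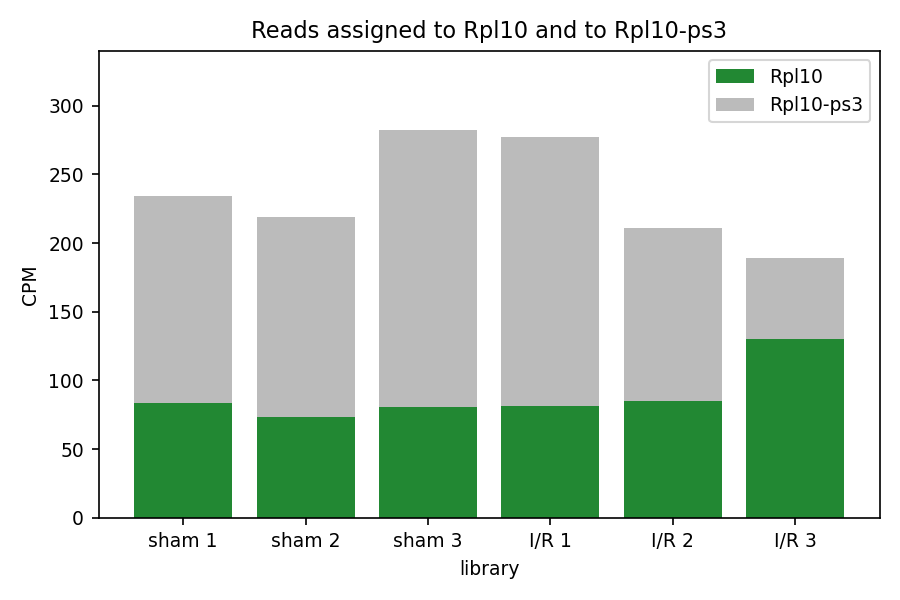
Reads assigned to Rpl10 (green) and to its copy Rpl10-ps3 (grey) in each library, in CPM, stacked. In I/R 3 the Rpl10 part is the largest of the 6 libraries (130 CPM) and the copy's part the smallest (59.4 CPM), while the stack is lowest (189 CPM).

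Copies of other members held counts too. A search of GENCODE M21 transcripts found 544 copies at 95% identity or more over at least 80% of a member's coding sequence, and 245 had counts. They belonged to 67 members and held 4.57% of the counts of members and copies together. For 13 members the copies held over 10%, with the highest shares for Rpl10 (61.9%), Rpl27a (50.7%), Rps23 (38.9%) and Rps13 (36.9%). Rps13 stood at 29.3, 29.0 and 43.5 CPM in sham mice and 38.2, 30.9 and 33.7 CPM in I/R mice, and Rps13-ps1 at 18.8, 16.7 and 35.0 CPM in sham mice and 31.3, 15.02 and 0 CPM in I/R mice. Rpl14 stood at 117, 106 and 147 CPM in sham mice and 144, 120 and 107 CPM in I/R mice. Its copy Rpl14-ps1 was at 27.3, 27.3 and 48.0 CPM in sham mice and 46.0, 15.8 and 0.742 CPM in I/R mice. The copies of Rpl10, Rps13 and Rpl14 were thus all lowest in I/R 3, where counts on the gene itself were not the lowest. With copies added, 81 of 81 members were highest in sham 3 or I/R 1, and 80 were lowest in I/R 3, all except Rpl5. The members lowest in another library before that, besides Rpl5 and the near-absent Rps12l1, were Rpl10, Rpl14 and Rps13.

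Gene length went with the library pattern, in members and in other genes. The median listed length of tested members was 809.5 nt against 2842 nt over all tested genes. Of the 82, 57 were under 1000 nt, a length that 7.39% of tested genes had. Among genes outside the list whose mean reached 10 CPM, the 58 of up to 500 nt had median deviations of -0.0022, -0.11 and 0.52 in sham mice and 0.42, -0.18 and -0.63 in I/R mice. The 11 members of that length had -0.073, -0.17 and 0.57 in sham mice and 0.49, -0.22 and -0.65 in I/R mice. Short genes outside the list were thus also high in sham 3 and I/R 1 and low in I/R 3. The 2173 other genes of 2000 to 3000 nt had deviations of -0.022 in sham 3, 0.00051 in I/R 1 and -0.0070 in I/R 3, and above 5000 nt the order was turned, at -0.073, -0.087 and 0.13.

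**Figure D5:**
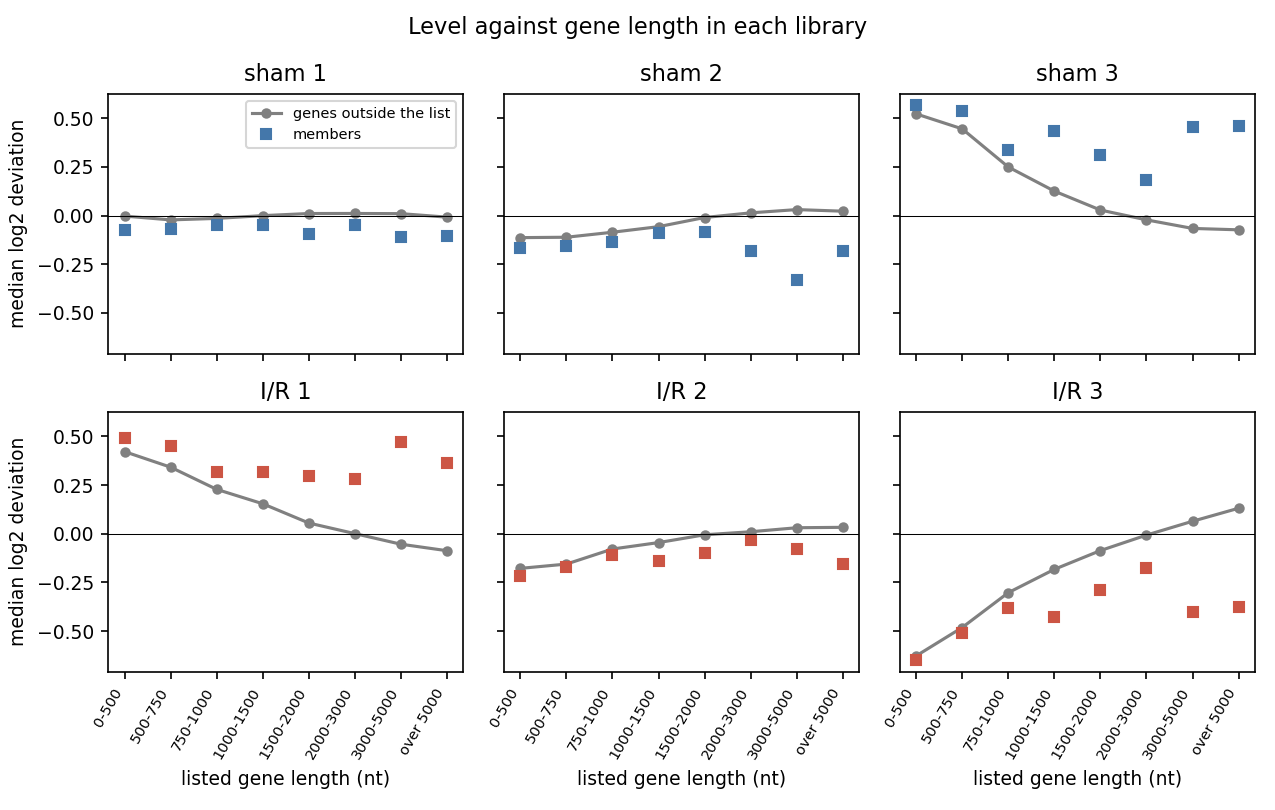
Median deviation (log2 CPM minus the gene's mean over 6 libraries) against listed gene length in nt, 1 panel per library, for genes outside the list with a mean of at least 10 CPM (grey line) and for ribosomal protein genes (squares). Among genes of up to 500 nt both groups lie near 0.5 in sham 3, 0.4 to 0.5 in I/R 1 and -0.6 in I/R 3, and in these 3 libraries the grey line crosses 0 as length grows while the squares stay on their side of it.

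Among the members the longer genes also moved less. Across 81 members, Spearman's rho between listed length and the log2 ratio of I/R 1 to I/R 3 was -0.557, a description across genes that share their libraries. Rpl36, at 383 nt, ran from 21.6 CPM in I/R 3 to 61.5 CPM in I/R 1, while Rpl4, at 1538 nt, ran from 303 to 359.7 CPM. Rpl36 and Rpl4, the members with the widest and narrowest range, were chosen after their values were seen. Members of 1000 to 1500 nt still had median deviations of 0.43 in sham 3 and -0.43 in I/R 3, against 0.13 and -0.18 in other genes of that length.

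With each library's trend on gene length taken out, fitted on genes outside the list, the median deviations of members were -0.054, -0.054 and 0.13 in sham mice and 0.14, -0.044 and -0.12 in I/R mice. Sham 3 and I/R 1 were still the highest and I/R 3 the lowest, with smaller distances. In the test with this trend as an offset, 42 tested members lay below 0 and 40 above, with a median log2 fold change of -0.0034 and a median standard error of 0.10. It called 0 members and 281 genes in all, with 0.446 as the smallest adjusted p of a member in edgeR's test. Whether the length trend arose in the tissue or in library preparation was not tested.

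Related gene groups fell into those that followed the same libraries and those that did not. Of 73 tested nuclear genes of the respiratory chain, 69 lay below 0 (median log2 fold change -0.19), and they summed to 7917, 7404 and 9624 CPM in sham mice and 9412, 7329 and 6305 CPM in I/R mice. This group has short transcripts too, with a median of 742 nt. Of 78 mitochondrial ribosomal protein genes, 67 lay below 0 (median -0.11), with median deviations of 0.25 in sham 3, 0.19 in I/R 1 and -0.29 in I/R 3. In both groups edgeR, DESeq2 and limma-voom each called 0 genes, and edgeR's test gave 0 and 2 genes at an unadjusted p under 0.05. The 13 mitochondrially encoded genes, with a median of 784 nt, had median deviations of 0.46 in sham 3, 0.31 in I/R 1 and -0.0017 in I/R 3, so they were not low in I/R 3. Fau, which encodes a ribosomal protein fused to a ubiquitin-like protein, falls outside the naming rule. Fau stood at 84.6, 75.7 and 117 CPM in sham mice and 118, 75.3 and 58.0 CPM in I/R mice, high and low in the same libraries as the members.

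Genes that make or use ribosomes ranged less between libraries. The median listed length was 2152 nt for translation factors, 2702 nt for ribosome biogenesis and 4220.5 nt for mTOR and TOP regulation. For the members it was 809.5 nt, and the part of length in this contrast was not tested. The 35 translation factors summed to 11128, 11099 and 11191 CPM in sham mice and 11802, 11581 and 11197 CPM in I/R mice, a spread of 1.06-fold where the members had 1.68. In this sum the 3 I/R values lay above the 3 sham values, at a log2 difference of 0.049 (exact permutation p = 0.1, the smallest possible). Of the 35 translation factors, edgeR's test and limma-voom called 0 and DESeq2 called 1, Pabpc1, and 4 reached an unadjusted p under 0.05 with edgeR. Their median log2 fold change was 0.071. Their median deviations were -0.053, -0.091 and 0.034 in sham mice and 0.10, 0.017 and -0.10 in I/R mice, with the members' libraries at the top and the bottom at a smaller size. Pabpc1, the cytoplasmic poly(A)-binding protein, whose own messenger RNA has a TOP motif, stood at 122, 124 and 120 CPM in sham mice and 157, 155 and 167 CPM in I/R mice. Its groups did not overlap, as in 17.1% of all tested genes. The log2 fold change was 0.39 ± 0.085, with an adjusted p of 0.0731 in edgeR's test, against 0.0181 in DESeq2 and 0.0239 in edgeR's test with the length trend as offset. In edgeR's test the adjusted p was 0.222 with the replicate number as a block. It ran from 0.118 to 0.314 when 1 library was left out, at log2 fold changes of 0.35 to 0.40. The 45 ribosome biogenesis genes had a median of -0.061, with 0 called and 4 under an unadjusted p of 0.05, of which Pes1 had the smallest (-0.24 ± 0.088, edgeR adjusted p = 0.35). The 24 genes of mTOR and TOP regulation had a median of 0.048, with 0 called and 3 under that p, led by Sesn1 at 0.26 ± 0.090 (edgeR adjusted p = 0.31). DESeq2 and limma-voom also called 0 in these 2 groups. Their median deviations in sham 3, I/R 1 and I/R 3 were 0.073, -0.020 and -0.010 for biogenesis and -0.11, 0.0098 and 0.075 for mTOR and TOP regulation, an order unlike that of the members.

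Of 15 tested p53 targets, 1 was called, Cdkn1a, an inhibitor of the cell cycle. It rose from 90.1, 93.4 and 90.5 CPM in sham mice to 156, 142 and 130 CPM in I/R mice (log2 fold change 0.64 ± 0.096, edgeR adjusted p = 0.0107). The call did not hold without sham 1 (0.63, edgeR adjusted p = 0.0939) or without I/R 2 (0.63, adjusted p = 0.0909), at nearly the same log2 fold change. Rps27l, the member among p53 targets, was tested and not called, as given above. The list's median was 0.061. Its 17 genes, Cdkn1a among them, summed to 609, 608 and 641 CPM in sham mice and 699, 673 and 682 CPM in I/R mice. In this sum the groups did not overlap (exact permutation p = 0.1, the smallest possible).

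Markers of the cell types in the ganglion were summed beside the members. The 14 neuron genes ran from 24178 CPM in I/R 3 to 28138 CPM in I/R 1, a 1.16-fold range. The 8 satellite glia genes ran from 2651 CPM in I/R 3 to 3576 CPM in sham 3. In these sums the groups overlapped, as they did for the members. Other sums separated the groups, each with an exact permutation p of 0.1, the smallest possible. The 12 fibroblast and meningeal genes summed to 1036, 1264 and 1144 CPM in sham mice and 562, 689 and 576 CPM in I/R mice, and 11 of the 12 were called lower by edgeR, DESeq2 and limma-voom. The 8 red cell genes summed to 184, 198 and 274 CPM in sham mice and 88.4, 64.6 and 53.9 CPM in I/R mice, also highest in sham 3 and lowest in I/R 3. The 9 Schwann and myelin genes summed to 7111, 6931 and 6826 CPM in sham mice and 5839, 6534 and 5870 CPM in I/R mice. Gene by gene they did not move to one side. Of the 9, 4 lay above 0 and 5 below, with a median log2 fold change of -0.0061 and 0 called. The 11 lymphocyte genes ran from 23.8 to 28.0 CPM in sham and from 14.6 to 19.2 CPM in I/R, and the 12 macrophage genes from 82.8 to 89.0 CPM in sham and from 93.3 to 96.7 CPM in I/R. Only 3 of the 11 lymphocyte genes were tested, with 2 above 0 and 1 below (median log2 fold change 0.21). Ighm was called lower by edgeR, DESeq2 and limma-voom, so the lower sum does not describe the lymphocyte genes as a set. Library totals ran from 19092650 to 22010227 expected counts, with the lowest in sham 3 and the highest in I/R 3. The part of cell makeup or depth in the members' library pattern was not tested.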

How the data were processed

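Gene levels were measured by RNA sequencing in 3 sham and 3 I/R libraries. The authors deposited 1 table of expected counts per gene and library, not scaled to library size, with gene symbols and the listed gene lengths in nt. In each library 10.7% to 11.5% of these were fractional, and all were rounded to integers for the count model. Per the submitters' processing notes, fastp, HISAT2, StringTie and the build GRCm39 were used. How reads that map to several places were counted is, in the sources used here, not given, nor are the counting program and its strand setting. That choice bears on members with near-identical copies. Totals were 19092650 to 22010227 expected counts per library, and the limit for a count of 0 covers counting error only.

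The whole table was fitted with edgeR 4.0.16 (R 4.3.3), using its quasi-likelihood test, with TMM scaling, the package's filter on low counts (minimum count 10) and Benjamini-Hochberg adjustment, and called at an adjusted p under 0.05. The test was checked on simulated counts, drawn independently for each gene and without a length trend. That check does not cover libraries whose genes vary together, as they do here. Standard errors come from the fold change and its F statistic, and deviations are log2 CPM with a prior count of 2. Sums were compared by a two-sided exact permutation test. With 1 library per mouse, p-values measure the spread between these mice. Copies were sought with blastn 2.17.0 against GENCODE M21 transcripts, and those lying within a longer transcript of another kind (under 50% of it) were not added. No coordinates were carried between that assembly and GRCm39.

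Alternatives were RLE and upper-quartile scaling, TMM without the members, DESeq2 1.42.0, limma-voom (limma 3.58.1), robust dispersion, no filter, a CPM of at least 1 in 3 libraries, -ps copies added to their member, a replicate block, leaving out each library, and sham 2 alone. Adding copies found by sequence, and a length trend (lowess, span 0.3) as offset, were chosen after seeing the data. The members and gene lists were chosen with earlier results of these data known. The genes named are the 5 largest and 5 smallest log2 fold changes, the 3 highest and 3 lowest levels per length, the paralogs with their parents, Rplp0, Rplp1, Rplp2, Rpsa and Rps6, the members that failed the filter, and for the pathway lists the called genes or those of smallest p. Rps13, Rpl14, Rpl27a, Rps23, Rps15a, Rps20, Rpl36, Rpl4 and Fau were named after their values were seen. Not every gene taken by this rule is reported here.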

Additional observations from a re-analysis of the deposited data

How the results depend on the processing

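The count of called members was 0 in edgeR's test, DESeq2 and limma-voom and under each other alternative with these exceptions, both Rpl3l: 1 member, lower in I/R, without the filter on low counts, and 0 to 1 members, all lower, over the fits that leave out 1 library, with the 1 falling to the fit without sham 2. Over all genes, 494 of 29449 were called without the filter and 181 of 16668 without sham 2. The same-numbered libraries did not deviate together (correlations of -0.11, 0.14 and -0.12 for numbers 1 to 3). No pairing is stated for them, and with 3 libraries a group these correlations cannot exclude one. With the replicate number as a block, 0 members and 63 genes were called, against 188 without the block, and the median log2 fold change of members was -0.15. The block ended the call of Cdkn1a (adjusted p = 0.0808 in edgeR's test) at a log2 fold change of 0.64, as without it. The log2 difference of the summed level turned from -0.11 to 0.075 against sham 2 alone and ran from -0.31 to 0.055 when 1 library was left out, above 0 without sham 3 (0.038) and without I/R 3 (0.055). The median of members ran from -0.41 to 0.077 over those fits and was 0.083 against sham 2 alone. Without I/R 1, 40 members had an unadjusted p under 0.05 and 0 were called in edgeR's test.

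Of 474 single-gene values under alternatives, for 25 members, 421 kept sign and call, 53 turned in sign, 33 of them when 1 library was left out, and 0 became calls. Against sham 2 alone, the value was 0.053 for Rpl36a, 0.021 for Rpl37a, -0.50 for Rps12l1, 0.020 for Rpl3, 0.14 for Rpl41, 0.30 for Rpl22l1, 0.041 for Rps27l, 0.082 for Rpl7, 0.21 for Rpl39, 0.042 for Rps4x, 0.16 for Rplp2 and 0.12 for Rps6. With the length trend as offset it was 0.037 for Rpl3, 0.013 for Rpl41, 0.052 for Rpl7, 0.0022 for Rps4x and 0.12 for Rps6. Rpl10 was at -0.12 with -ps copies added and at -0.13 with copies found by sequence, and Rps12l1 at -0.087 in limma-voom.

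Leaving out 1 library gave ranges across 0 of -0.60 to 0.030 for Rpl36a, -0.69 to 0.031 for Rpl37a, -0.65 to 0.0043 for Rps27, -0.59 to 0.66 for Rps12l1, -0.067 to 0.058 for Rpl3, -0.54 to 0.091 for Rpl41, -0.59 to 0.18 for Rpl22l1, -0.58 to 0.013 for Rps27l, -0.17 to 0.059 for Rpl7 and -0.63 to 0.15 for Rpl39. The ranges were -0.23 to 0.016 for Rps4x, -0.56 to 0.10 for Rplp2, -0.072 to 0.073 for Rps6, -0.13 to 0.033 for Rplp0, -0.12 to 0.40 for Rpl13, -0.14 to 0.37 for Rps2, -0.12 to 0.15 for Rpl22, -0.11 to 0.20 for Rpl5 and -0.094 to 0.20 for Rps4l. Without crossing 0, the value ran from 0.072 to 0.44 for Rpl10, -0.66 to -0.030 for Rplp1, -0.56 to -0.082 for Rpl12, -0.22 to -0.019 for Rpsa and -0.13 to -0.036 for Rpl7l1. The cause of these turns was not tested, beyond the reads on copies and the length trend that those fits add. With 3 mice a group and a median standard error of 0.22, differences of the size of the members' median could not be told from the spread between mice.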
